A study of Mus musculus with 32 samples.

Results

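The genes for the proteins of the cytosolic ribosome were followed through 11 conditions of mouse embryonic stem cells (ESCs). Genes were taken by symbol: Rpl or Rps with a number and an optional letter or like suffix, together with *Rplp0*, *Rplp1*, *Rplp2* and *Rpsa*, leaving out the Rps6k kinases, symbols with -ps and genes with Gm symbols. This gave 87 of the 51826 gene rows, 54 of the large subunit and 33 of the small subunit. Ribosomal proteins and ribosomal RNA build the particle that translates messenger RNA, and each protein is needed in about equal number in most cells. Their messenger RNAs are among the most abundant of any growing cell and typically start with a run of pyrimidines, through which growth signals adjust their translation. Some members have a sister gene of restricted use, such as *Rpl10l* and *Rpl39l*, which are best known from the testis.

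All groups carried Rex1-GFPd2, a short-lived GFP reporter of the naive state (RGd2 cells). RGd2 cells were in 2i (the MEK inhibitor PD0325901 with the GSK3 inhibitor CHIRON), in 2i for 5 passages (2ip5), in N2B27 medium without inhibitors for 16 h (N16h) or 72 h (N72h), or in CHIRON alone for 2 passages (CHp2). *Rbpj*-KO and *Etv5*-KO cells were in 2i and at N16h, cells without *Etv5* and *Rbpj* (ER-dKO) were in CHIRON at passage 5 (CHp5), and cells also lacking *Tcf3*, now *Tcf7l1* (ETR-tKO), were in N2B27 at passage 5 (Np5). Each group had 3 libraries by the labels, except *Etv5*-KO at N16h with 2. The study's text describes a replicate of RGd2 cells at N16h as lost, and the labels, which list all 3, were followed. Each RGd2 group held 2 libraries of the parental culture and 1 of a clonal line, whereas the libraries of a mutant group came from different clones, so a mutant group is a small set of clones. *Rbpj*-KO cells in 2i and at N16h were the same 3 clones, and 2 of the 3 *Etv5*-KO clones in 2i were those at N16h. The study states that cell lines were routinely kept in CHIRON and LIF and moved to 2i or 2i with LIF for 48 h before an assay. Its heatmaps show values relative to 2ip5, and it compares ETR-tKO with 2ip5. Here 2ip5 was taken as reference for CHp2, N72h and the combined mutants, and 2i and N16h of RGd2 cells for the single mutants. In 2ip5 against 2i, passage and culture history cannot be told apart, nor can genotype and medium in ER-dKO and ETR-tKO against 2ip5.

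Gene counts ranged from 5986857 to 71439411 per library, with a median of 29940141, and spike-ins (ERCC transcripts added in fixed amount) made up 0.991% to 1.52% of all counts. The targeted genes lay low in the mutants that lack them: *Rbpj* was at 3.16 ± 0.443 FPKM (fragments by gene length and library total; SD, n = 3) in *Rbpj*-KO against 12.4 ± 0.445 in RGd2 cells in 2i, *Etv5* at 21.6 ± 2.39 in *Etv5*-KO against 135 ± 18.7, and *Tcf7l1* at 0.795 ± 0.437 in ETR-tKO against 5.74 ± 0.555 in 2ip5. *Rbpj* in ER-dKO went against the label in 1 library: the library labelled ER-dKO replicate 12 was at 3489 scaled counts, above the 3385 of the highest 2ip5 library, while replicates 10 and 11 were at 1138 and 1307. In ETR-tKO, *Rbpj* was at 1559, 2281 and 2348 scaled counts, below the 2830 of the lowest 2ip5 library. The mutations were made with pairs of guides in exons, which need not lower a gene's count. Whether this applies to ER-dKO replicate 12 was not tested. *Etv5* was at 14.97 ± 2.31 FPKM in ER-dKO against 117 ± 5.40 in 2ip5. Summed naive markers were between 665 and 751 FPKM in RGd2 cells in 2i and between 169 and 180 at N16h. In 31 pairs of replicates, counts differed by 3.39 to 44.3 times the chi-square value per gene that sampling alone gives, so no library was counted as a copy of another. RGd2 2i replicate 33, which is the clonal line and the shallowest library, stood apart from its own group in the composition of the family. After centering each library on its median member, the log2 deviations of 82 members from the median library had an SD of 0.403 in replicate 33, against 0.258 in replicate 31 and 0.163 in replicate 32. The same SD was 0.384 to 0.419 in the CHp2 libraries and 0.533 to 0.567 in the N72h libraries. *Rbpj*-KO 2i replicate 28 had an SD of 0.311, against 0.184 and 0.187 in the other libraries of that group. Results of the tests that move without RGd2 2i replicate 33 or *Rbpj*-KO 2i replicate 28 are given with and without them. The correlations with coding length given below were not computed without them.

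The sequences around the start sites of 7 members are printed because their transcripts carry the results below: *Rps24* is among the 3 members with the highest level, *Rpl38*, *Rpl37* and *Rps27* are short members among those farthest from the family's median in a comparison, and *Rpl10l*, *Rpl39l* and *Rpl22l1* are the like genes with a mean over 1 FPKM that varied most between conditions. Each runs 5′ to 3′ from 40 bases before the RefSeq start site to 15 bases from it on (GRCm38.p6), and capitals mark a run of C and further pyrimidines beginning within 3 bases of the start and the ETS core CCGGAA or its reverse complement TTCCGG.
*Rps24* (chr14:24490638-24490692, plus strand): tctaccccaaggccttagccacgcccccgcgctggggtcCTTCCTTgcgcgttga
*Rpl38* (chr11:114668540-114668594, plus strand): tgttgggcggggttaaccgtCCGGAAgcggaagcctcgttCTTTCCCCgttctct
*Rpl37* (chr15:5116573-5116627, plus strand): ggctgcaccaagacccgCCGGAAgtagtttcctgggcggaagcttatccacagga
*Rps27* (chr3:90213634-90213688, minus strand): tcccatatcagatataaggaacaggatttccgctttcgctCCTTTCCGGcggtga
*Rpl10l* (chr12:66284387-66284441, minus strand): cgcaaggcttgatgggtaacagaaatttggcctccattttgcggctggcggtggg
*Rpl39l* (chr16:10170188-10170242, plus strand): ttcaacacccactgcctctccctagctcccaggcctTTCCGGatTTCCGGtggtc
*Rpl22l1* (chr3:28805468-28805522, plus strand): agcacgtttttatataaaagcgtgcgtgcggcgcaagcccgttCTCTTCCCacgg
Of these windows, those of *Rps24*, *Rpl38*, *Rps27* and *Rpl22l1* hold such a run, and in *Rps27* it overlaps the ETS core. The windows of *Rpl10l*, *Rpl39l* and *Rpl37* hold none within 3 bases of the listed start.

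Across 64 members with a RefSeq promoter window (250 bases before to 50 after the start), CCGGAA on either strand stood in 34, or 53.1%, against 16.7% of 27025 genes and 34.3% of the 8444 of them expressed here. The run of pyrimidines stood within 3 bases of the start in 26 members, or 40.6%, against 13.5% of all genes and 15.2% of expressed genes. Exactly at the start it stood in 21.9% of members, 3.01% of all genes and 3.14% of expressed genes. AAGATGGC, the YY1 site, was in 9.38% of members, 3.19% of all genes and 5.90% of expressed genes, CACGTG, the E-box, in 9.38%, 8.09% and 12.5%, and TGGGAA, the core of the RBPJ site, in 23.4%, 28.3% and 26.0%. A match to these letters is a description of the sequence and not of binding. With spike-in scaling, members with and without CCGGAA had median log2 fold changes of 0.01 and -0.03 in *Etv5*-KO cells in 2i, and of -0.21 and -0.27 in ETR-tKO cells. For members with and without the run of pyrimidines within 3 bases of the start, the medians were 0.07 and -0.06, and -0.29 and -0.18. None of these differences was tested.

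Most of the family was expressed at a high level. The mean FPKM over the 11 conditions was over 100 for 69 members, between 1 and 100 for 13 and under 1 for 5, and the median was 307 FPKM against 2.28 for the 18892 genes tested. Of the 100 nuclear genes with the highest level, 40 were members. *Rplp1*, a protein of the stalk that recruits translation factors, was highest with 2145 FPKM, followed by *Rpl8*, a large-subunit core protein, with 1817 and *Rps24*, a small-subunit protein mutated in Diamond-Blackfan anemia, with 1373. The lowest of the 85 tested members were *Rpl6l* with 0.329 FPKM, *Rpl3l*, the striated muscle sister of *Rpl3*, with 0.339, and *Rpl24*, a large-subunit core protein, with 0.828. *Rpl32l* and *Rps12l1* had too few counts to be tested. *Rpl32l*, *Rpl6l* and *Rps12l1* are annotated as processed pseudogenes and *Rps4l* as a transcribed one, although the last had a mean of 350 FPKM.

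Part of a member's level can depend on how reads of near-identical copies and of overlapping genes were counted. The authors kept uniquely placed reads only, and 84 of the 87 members share at least one stretch of 50 bases with another annotated gene. A median of 23.5% of a member's stretches were shared, and over 50% in 8 members, among them *Rplp1* with 60% and *Rpl24* with 51.8%. Stretches were sought on either strand in any other annotated gene, so these values are not a measure of copies alone. *Rpl23a*, with 80.8%, shared most with *Tlcd1*, and *Rpl35*, with 84.0%, most with *Wdr38*, neither named as a ribosomal protein gene or pseudogene. The exons of 27 members overlap another gene on the same strand. For *Rpl24*, 47.0% of the exonic bases lie under a second gene model, Gm28037, and its level is uncertain for that reason. *Rpl10l*, with 7.60% of stretches shared, and *Rpl39l*, with 0%, are little touched by this.

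The median span over the conditions was narrower for the members than for all genes with a mean of at least 1 FPKM. From the lowest to the highest condition mean, a tested member spanned a median of 0.43 on the log2 scale with spike-in scaling. The median was 0.997 for the 11523 genes with a mean of at least 1 FPKM. These genes were not matched in level to the members, which had a median of 307 FPKM. Whether the family varied less than genes of like level was not tested. The span was under 0.5 for 49 members and over 1 for 6, namely *Rpl10l* (4.61), *Rpl39l* (3.84), *Rpl6l* (2.98), *Rpl3l* (2.65), *Rpl24* (1.43) and *Rpl22l1* (1.38), of which *Rpl6l*, *Rpl3l* and *Rpl24* had a mean under 1 FPKM. With a call set at an adjusted p (edgeR's quasi-likelihood test, Benjamini-Hochberg over 18892 genes) under 0.05 and at least 1 FPKM in either group, 32 of 85 members were called in none of the 10 comparisons between 2 groups and 20 in 3 or more. A like count over all genes is not given here, so these numbers do not set the family against other genes. Shares of all genes called are given below for each comparison. In *Rplp0*, whose protein carries the stalk, the 2i libraries were at 35034, 33034 and 26734 spike-in-scaled counts, the N16h libraries at 28274, 31369 and 27213 and the 2ip5 libraries at 35768, 37731 and 36067. The 2ip5 libraries lay above the others, but the difference from 2i was 0.21 ± 0.10 (SE) on the log2 scale with an edgeR adjusted p of 0.11.

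The counts of calls depended on the scaling, so spike-in scaling and gene-based scaling (TMM, which takes most genes as level) are given side by side. Shares of all genes called are given for the models of all 32 libraries with these 2 scalings. For models with fewer libraries or other settings, only the counts of members are given. With spike-ins, the median member changed by at most 0.285 (log2) between any of the 11 conditions. The share of all gene counts taken by the members needs no scaling. It was 5.108% ± 0.0206 (SD, n = 3) in RGd2 cells in 2i, and 4.86% to 5.60% at N16h, and higher in 2ip5 (6.55% to 6.92%), CHp2 (6.11% to 6.46%) and N72h (6.08% to 6.38%). It was 4.72% to 5.54% in *Rbpj*-KO and 5.52% to 5.86% in *Etv5*-KO cells in 2i, and 4.66% to 5.26% and 4.62% to 5.18% at N16h. ER-dKO cells had 5.50% to 5.59% and ETR-tKO cells 4.71% to 5.45%. The 9 libraries above 6% were those of RGd2 cells in 2ip5, CHp2 and N72h, which the labels number 1 to 9. The labels give no batch, so library preparation and culture cannot be told apart for this step. In RNA from whole cultures, less RNA per cell and fewer cells of a kind cannot be told apart either.

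**Figure D1:**
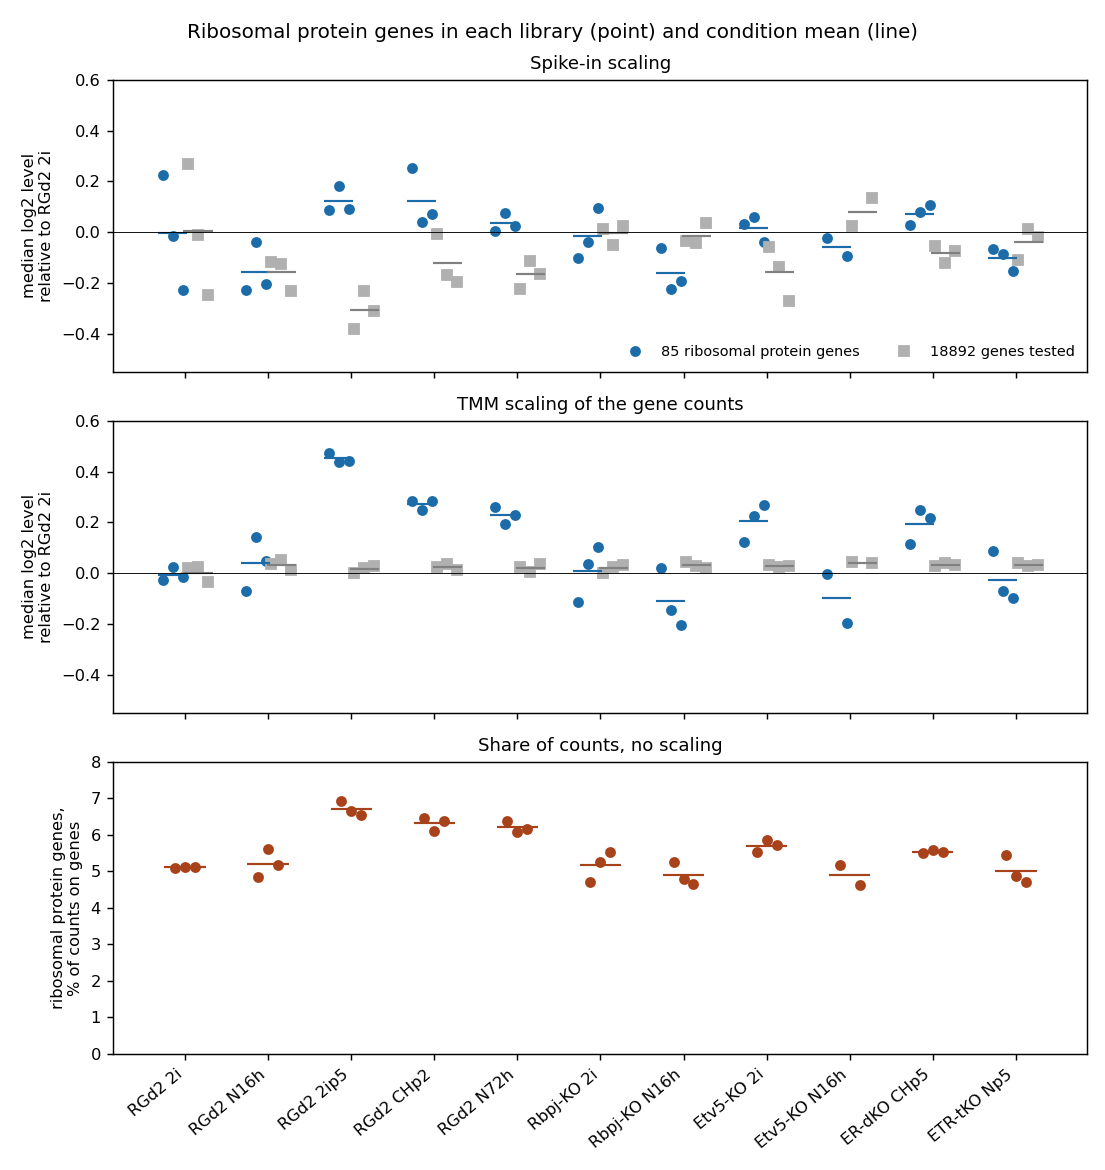
Each point is 1 library in the 11 conditions and each line a condition mean. The upper panels plot the median log2 level of 85 members (circles) and of 18892 genes tested (squares) relative to RGd2 2i, with spike-in and with TMM scaling, and the lower panel the members' share of counts. In 2ip5 the members lay 0.402 to 0.469 above the median gene, and in ETR-tKO between 0.135 below and 0.0436 above it.

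RGd2 cells after 5 passages in 2i differed from RGd2 cells in 2i in the relative level of nearly the whole family. With spike-ins the median member rose by 0.09 while the median gene fell by 0.39, so that the family stood 0.48 above it. The edgeR test called 14 of 82 eligible members higher, where 2.96% of all genes were called higher, and 6 lower, where 53.3% of all genes were called lower. With TMM, 68 members were called higher and 2 lower, against 14.8% and 11.5% of all genes. The 14 called higher with spike-ins were *Rpl23*, *Rpl35*, *Rpl35a*, *Rpl36*, *Rpl36a*, *Rpl37*, *Rpl37a*, *Rpl38*, *Rpl39*, *Rpl41*, *Rps10*, *Rps21*, *Rps27* and *Rps29*. Among those called lower were the like genes *Rpl10l*, *Rpl22l1*, *Rpl39l*, *Rpl7l1* and *Rps4l*. The medians of the subunits were 0.08 for the small and 0.09 for the large.

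*Rpl38*, a large-subunit protein required for translation of certain Hox messages, was at 4026, 4426 and 4829 scaled counts in 2i and at 7291, 8902 and 8515 in 2ip5. The groups did not overlap, and *Rpl38* rose by 0.91 ± 0.19 (log2, SE; edgeR adjusted p = 0.00027). *Rps27*, a zinc-finger protein of the small subunit, was at 8032, 8283 and 7821 in 2i and at 12874, 14491 and 13927 in 2ip5, a rise of 0.77 ± 0.17 (edgeR adjusted p = 0.00034). Without 2i replicate 31, 25 members were called higher and 3 lower, without replicate 33, 16 and 10, and without 2ip5 replicate 3, 9 and 4. In a model of only the libraries compared, 8 were called higher and 3 lower.

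At N16h, 22 of 83 members were called lower with spike-ins, where 41% of all genes were. No member was called higher (none at an unadjusted p under 0.05 in edgeR, and none by DESeq2) where 8.95% of all genes were. Fold changes had medians of -0.16 over members and -0.24 over all genes, a difference of 0.08 that reversed to -0.0745 without a filter on low counts. By library, the family lay between 0.111 below and 0.0860 above the median gene at N16h and between 0.0443 below and 0.0209 above it in 2i, so the groups overlapped. With TMM, 4 members were called higher and 4 lower, against 23.4% and 24.7% of all genes, and the median member changed by 0.05. Among those called lower were *Rps2*, *Rps20*, *Rpl22l1*, *Rps16*, *Rpl10a*, *Rps15a*, *Rpl18*, *Rpl22*, *Rpsa*, *Rpl12*, *Rps10*, *Rpl3*, *Rpl13*, *Rps19*, *Rps3*, *Rpl23a*, *Rpl7*, *Rpl5* and *Rpl10*. *Rps20*, a small-subunit head protein, was at 11541, 10525 and 14459 scaled counts in 2i and at 8626, 8951 and 7957 at N16h. All N16h libraries lay below all 2i libraries, and *Rps20* fell by 0.51 ± 0.11 with spike-ins (edgeR adjusted p = 0.00022) and by 0.33 ± 0.13 with TMM (adjusted p = 0.035). *Rpl22l1* fell by 0.49 ± 0.12 (adjusted p = 0.0011) and gave -0.25 ± 0.13 with TMM (adjusted p = 0.11). The number called lower was 3 in a model of only the libraries compared. It also depended on single libraries: it was 47 without 2i replicate 33, 7 without 2i replicate 31, 12 without N16h replicate 22 and 8 without N16h replicate 24. The 41% of all genes given above belongs to the model of all 32 libraries, and the shares in these smaller models are not given. In replicate 33, *Rps2* was at 37458 against 27466 and 23784 in the other 2i libraries, and *Rps24* at 15965 against 37860 and 29833.

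At N72h, where all 6 naive markers were called lower, the family lay below its level in 2ip5 relative to other genes. With spike-ins, no member was called higher (1 at an unadjusted p under 0.05 in edgeR, and 0 by DESeq2) where 34.1% of all genes were, and 18 of 82 were called lower where 22.8% were. Members had a median of -0.08 and all genes one of 0.11. With TMM no member was called higher (none at an unadjusted p under 0.05), against 31.2% of all genes, and 46 were called lower, against 34.2%. Among those called lower were the like genes *Rpl39l*, *Rpl10l*, *Rpl7l1* and *Rps4l* together with *Rpl23*, *Rpl37*, *Rpl37a*, *Rpl38*, *Rpl39*, *Rps10*, *Rps12*, *Rps15a*, *Rps20*, *Rps21*, *Rps23*, *Rps28* and *Rps29*. Without 2ip5 replicate 2, 8 were called lower, and without N72h replicate 9, 11. In a model of only the libraries compared, 2 were called higher. Summed formative markers were between 506 and 521 FPKM at N72h and between 30.6 and 33.9 in 2ip5, with all 5 and 3 of 5 at 1 FPKM or more, and their part in the results was not tested.

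In CHp2, only 2 of 82 members were called higher and 2 lower with spike-ins, where 27.3% and 13% of all genes were. The median member changed by -0.00 and the median gene by 0.17, a difference that reversed to 0.0034 without a filter on low counts. In a model of only the libraries compared, 9 were called lower. Summed mesoderm and endoderm markers were between 69.0 and 73.0 FPKM in CHp2 and between 5.90 and 8.02 in 2ip5, with 5 of the 6 genes under 1 FPKM in both, and their part in the results was not tested. With TMM, 1 was called higher and 17 lower, against 22.5% and 28% of all genes. *Rpsa*, the laminin receptor protein of the small subunit, was at 97434, 82920 and 91118 scaled counts in CHp2 and at 74775, 74664 and 66897 in 2ip5. *Rpsa* rose by 0.33 ± 0.10 (edgeR adjusted p = 0.012) and with TMM by 0.15 ± 0.05 (adjusted p = 0.016), but its call was lost without 2ip5 replicate 3 (0.28) or CHp2 replicate 4 (0.27). *Rpl10*, at the center of the large subunit, rose by 0.25 ± 0.09 with spike-ins (adjusted p = 0.02) and gave 0.08 with TMM (adjusted p = 0.37). The call of *Rpl10* was also lost without 2ip5 replicate 3 (0.21) or CHp2 replicate 4 (0.23), so that no member was called higher without either. *Rps4l* fell by 0.30 ± 0.12 (adjusted p = 0.04), a call lost without any 1 of the 6 libraries, which left *Rpl39l* alone.

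**Figure D2:**
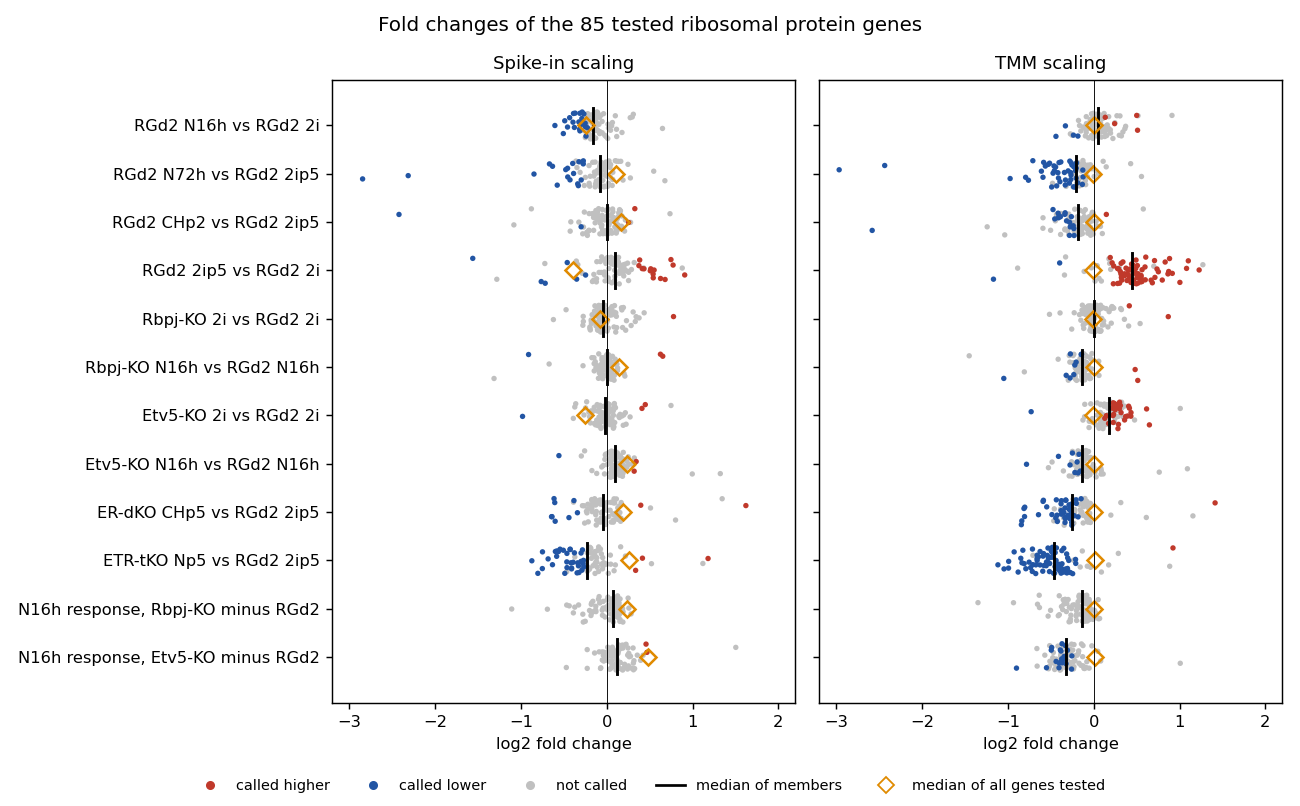
Log2 fold changes of the 85 tested members (points) in 10 comparisons of 2 groups and 2 differences of the N16h response, with spike-in scaling on the left and TMM on the right. Red is called higher, blue lower and grey not called, the black line is the members' median and the open diamond the median of all genes. The members lay above the diamond in 2ip5 against 2i (median 0.09 and -0.39) and below it in ETR-tKO (-0.23 and 0.26) with spike-ins.

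In *Rbpj*-KO cells few members changed. In 2i, *Rpl10l* was called higher and no member lower (2 at an unadjusted p under 0.05 in edgeR, 0 by DESeq2), where 5.47% and 7.44% of all genes were. The median member changed by -0.05 and the median gene by -0.08. With TMM, *Rpl10l* and *Rpl22l1* were called higher and none lower (3 at an unadjusted p under 0.05), against 11.6% and 8.36% of all genes. Without RGd2 2i replicate 33, 2 members were called higher and 14 lower with spike-ins, and without replicate 32, 2 and 1. At N16h, *Rpl10l* and *Rpl22l1* were called higher and *Rpl39l* lower, where 20.4% and 3.83% of all genes were. Here the median member changed by 0.01 and the median gene by 0.14, a difference that reversed to 0.0065 without a filter on low counts. With TMM, 2 were called higher and 9 lower, against 15.6% and 12.5% of all genes. The lower call of *Rpl39l* was lost without *Rbpj*-KO replicate 21 (-0.66), and the higher call of *Rpl10l* without RGd2 replicate 24 (0.48).

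In *Etv5*-KO cells in 2i with spike-ins, *Rpl39* and *Rps27* were called higher and *Rpl10l* lower, where 6.41% and 33.5% of all genes were. The median member changed by -0.02 and the median gene by -0.25. With TMM, 29 were called higher and 1 lower, against 19.5% and 15.3% of all genes. *Rps27* was at 9054, 12314 and 11643 scaled counts in *Etv5*-KO and at 8032, 8283 and 7821 in RGd2 cells, a rise of 0.45 ± 0.16 (edgeR adjusted p = 0.031). The call of *Rps27* was lost without RGd2 replicate 31 (0.45) or 32 (0.47) or *Etv5*-KO replicate 26 (0.36) or 27 (0.41). The numbers called higher and lower were 4 and 1 without RGd2 replicate 31, 1 and 4 without replicate 32 and 1 and 7 without replicate 33, and none was called higher without *Etv5*-KO replicate 26 or 27 or in a model of only the libraries compared.

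At N16h in *Etv5*-KO cells, *Rps15a* and *Rps16* were called higher and *Rpl10l* lower with spike-ins, where 33.3% and 4.06% of all genes were. Medians were 0.10 for members and 0.24 for all genes, a difference that reversed to 0.0337 without a filter on low counts. By library, the family lay 0.0466 and 0.2315 below the median gene in *Etv5*-KO and between 0.111 below and 0.0860 above it in RGd2 cells, so the groups overlapped. Fitting only the libraries compared gave 9 members called higher. With TMM, no member was called higher (none at an unadjusted p under 0.05) and 9 lower, against 18.3% and 14.9% of all genes. *Rps15a*, a small-subunit protein, was at 9572 and 8216 scaled counts in *Etv5*-KO and at 6229, 7668 and 7130 in RGd2 cells. It rose by 0.34 ± 0.13 with spike-ins (edgeR adjusted p = 0.036) and gave 0.11 with TMM (adjusted p = 0.48). *Rps16* rose by 0.32 ± 0.12 (adjusted p = 0.032) and gave 0.09 with TMM (adjusted p = 0.66). No member was called either way without RGd2 replicate 22 or *Etv5*-KO replicate 17, *Rpl10l* was the only call without RGd2 replicate 24, and no member was called lower without RGd2 replicate 23 or *Etv5*-KO replicate 18.

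The response to 16 h without 2i was also compared between genotypes. For *Rbpj*-KO against RGd2 no member was called in either direction with spike-ins (none at an unadjusted p under 0.05 in edgeR, 0 by DESeq2), where 4.6% of all genes had a higher and 0.189% a lower response. With TMM there was also no call (7 at an unadjusted p under 0.05, all lower), against 2.77% and 1.3% of all genes. Without RGd2 2i replicate 33, 1 member was called higher. For *Etv5*-KO against RGd2, *Rps2* and *Rps16* had a higher response with spike-ins and no member a lower one (none at an unadjusted p under 0.05, 0 by DESeq2), where 45.5% and 0.621% of all genes did. With TMM no member was higher (none at an unadjusted p under 0.05) and 20 were lower, against 8.99% and 5.35% of all genes. In a model of only the libraries compared no member was called higher. The direction for the family depended on the scaling, with a median member of 0.12 and a median gene of 0.49 with spike-ins, and of -0.33 and 0.01 with TMM. The number called higher with spike-ins was 8 without RGd2 2i replicate 32, 7 without RGd2 2i replicate 33, 5 without *Etv5*-KO 2i replicate 25, and 1 without RGd2 replicate 31, 23 or 24 or *Etv5*-KO replicate 26, 27, 17 or 18.

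ER-dKO cells in CHp5 and ETR-tKO cells in Np5 had lower relative levels of the family than RGd2 cells in 2ip5, with which both were compared, so the comparisons share their reference libraries with each other and with those of N72h and CHp2. In ER-dKO, 2 of 82 members were called higher and 8 lower with spike-ins, where 35% and 8.87% of all genes were, and the median member changed by -0.05 against 0.20 for the median gene. With TMM, 1 was called higher and 42 lower, against 22.5% and 21.1% of all genes. *Rpl10l* and *Rpl22l1* were higher, and *Rpl27*, *Rpl35a*, *Rpl36*, *Rpl36a*, *Rpl37*, *Rpl38*, *Rps28* and *Rps29* lower. *Rpl38* was at 3824, 5620 and 6470 scaled counts in ER-dKO, all below the 7291 of the lowest 2ip5 library, and fell by 0.64 ± 0.18 (edgeR adjusted p = 0.0061). The number called lower was 1 without ER-dKO replicate 10, which is the lowest of the 3 in *Rpl38*, and 4 without 2ip5 replicate 2 or 3. Without the library labelled ER-dKO replicate 12, in which *Rbpj* was not low, 2 were called higher and 11 lower. A model of only the libraries compared called 7 higher and 20 lower. Without 2ip5 replicate 1 or 3, *Rpl10l* was the only member called higher.

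In ETR-tKO the family had its lowest median fold change of the 10 comparisons with spike-ins. With spike-ins, 3 of 82 members were called higher, where 38% of all genes were, and 34, or 41.5%, were called lower, where 10% were. With TMM, 1 was called higher and 74 lower, against 23.6% and 27.3% of all genes. The median member changed by -0.23 with spike-ins and -0.47 with TMM, and lay 0.49 below the median gene with both. The small and large subunits had medians of -0.25 and -0.20. Mitochondrial transcripts took 16.7% to 18.7% of counts in ETR-tKO and 13.8% to 15.4% in 2ip5. Summed neural markers were between 67.4 and 70.7 FPKM in ETR-tKO and between 23.4 and 25.8 in 2ip5, with 3 of 4 and 2 of 4 at 1 FPKM or more. In RGd2 cells in 2i the same sum was between 48.1 and 57.4 FPKM, so the contrast depends on the reference. The sum does not tell which genes carry it. The part of mitochondrial transcripts or neural markers in the results was not tested. *Rpl37*, a short zinc-binding protein of the large subunit, was at 3875, 3251 and 2968 scaled counts in ETR-tKO and at 5234, 6706 and 6510 in 2ip5. It fell by 0.87 ± 0.20 (edgeR adjusted p = 0.0006). *Rpl38* was at 5716, 4416 and 4034 and fell by 0.80 ± 0.19 (adjusted p = 0.00057), and *Rps29*, *Rps28* and *Rpl35a* were among the next, with -0.75, -0.75 and -0.68. The 3 called higher were like genes: *Rpl10l*, *Rps27l* with 0.34 ± 0.12 (adjusted p = 0.026) and *Rps4l* with 0.42 ± 0.11 (adjusted p = 0.003). *Rps4l* was at 13827, 9023 and 9094, and its call was lost without ETR-tKO replicate 13 (0.18) and with TMM (0.17, adjusted p = 0.27). The number called lower was 21 without ETR-tKO replicate 15. The reference mattered for all 4 comparisons with 2ip5: against RGd2 cells in 2i, the median member lay 0.25 above the median gene in ER-dKO, 0.01 above it in ETR-tKO, 0.29 above it at N72h and 0.33 above it in CHp2.

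Among members with roles of their own, *Rplp2*, *Rpsa*, *Rplp0* and *Rplp1* spanned 0.54, 0.52, 0.52 and 0.50 over the conditions with spike-ins, and *Rpl5* and *Rpl11* 0.35 and 0.27, where the median member spanned 0.43. The stalk proteins differed from 2ip5 in ETR-tKO, where *Rplp0* fell by 0.28 ± 0.10 (edgeR adjusted p = 0.028) and *Rplp2* by 0.41 ± 0.11 (adjusted p = 0.0017), while *Rplp1* gave -0.20 ± 0.14 (adjusted p = 0.28). None of the 3 was called in the other 9 comparisons of 2 groups with spike-ins. *Rpl5* and *Rpl11*, which carry 5S RNA into the ribosome and restrain MDM2, were followed at N16h. *Rpl5* was at 27067, 23011 and 20830 scaled counts in 2i and at 20214, 19770 and 20109 at N16h, and fell by 0.24 ± 0.09 (edgeR adjusted p = 0.027). *Rpl11* was at 18756, 14201 and 11713 in 2i and at 13779, 17006 and 14604 at N16h, with overlapping groups and a difference of 0.01 ± 0.11. With TMM both values were higher, with -0.03 for *Rpl5*, which was not called, and 0.24 for *Rpl11*, which was called higher. The difference between the genes was not tested. *Rpsa* fell at N16h by 0.31 ± 0.10 (adjusted p = 0.014), and gave -0.10 with TMM, which was not called. Its libraries in 2i were at 95211, 73640 and 66153 scaled counts and those at N16h at 64338, 63678 and 61224.

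Of members with a mean over 1 FPKM, *Rpl10l*, *Rpl39l* and *Rpl22l1* had the widest spans over the conditions. *Rpl10l*, an intronless copy of *Rpl10*, was at 2929, 2275 and 1256 spike-in-scaled counts in RGd2 cells in 2i, at 2640, 2648 and 1688 at N16h, at 950, 919 and 509 in 2ip5, at 810, 633 and 405 in CHp2 and at 187, 178 and 120 at N72h. In each of these 5 conditions the lowest value was that of the clonal line. In *Rbpj*-KO cells it was at 4130, 3960 and 3613 in 2i and at 3862, 3484 and 3681 at N16h, above every RGd2 library. In *Etv5*-KO cells it was at 1124, 1338 and 996 in 2i, where 1 of the 3 RGd2 libraries lay within their range, and at 1652 and 1528 at N16h, below all 3 RGd2 libraries. ER-dKO cells were at 2533, 2235 and 2334, and ETR-tKO cells at 1397, 1954 and 1902, all above the RGd2 libraries in 2ip5.

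By the edgeR test, *Rpl10l* fell by 2.31 ± 0.27 at N72h against 2ip5 (adjusted p = 1.5e-09) and by 1.56 ± 0.21 in 2ip5 against 2i (adjusted p = 4.3e-07). It rose by 0.78 ± 0.19 in *Rbpj*-KO in 2i (adjusted p = 0.0028) and by 0.65 ± 0.18 at N16h (adjusted p = 0.0069), and changed by -0.98 ± 0.19 (adjusted p = 9.2e-05) and -0.56 ± 0.21 (adjusted p = 0.035) in *Etv5*-KO. It rose by 1.62 ± 0.21 in ER-dKO (adjusted p = 2.8e-08) and by 1.18 ± 0.21 in ETR-tKO (adjusted p = 1.3e-05). With TMM it was called in the same direction in each of these 8 comparisons. Those in ER-dKO and ETR-tKO depend on the reference: against RGd2 cells in 2i they were 0.06 and -0.38. The call in *Etv5*-KO at N16h was lost without RGd2 replicate 22 (-0.46) or 23 (-0.45) or *Etv5*-KO replicate 17 (-0.61) or 18 (-0.50), and by DESeq2 (-0.55). By DESeq2 the call in *Rbpj*-KO at N16h was lost as well (0.66). Between 2i and N16h *Rpl10l* gave 0.04 ± 0.18 (adjusted p = 0.87).

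*Rpl39l*, the sister of *Rpl39* in the wall of the exit tunnel, was at 312, 340 and 339 scaled counts in 2i, at 398, 459 and 312 at N16h, at 184, 200 and 208 in 2ip5, at 29.8, 35.0 and 46.7 in CHp2 and at 20.7, 28.1 and 31.7 at N72h. The CHp2 and N72h libraries lay below all others. *Rpl39l* fell by 2.42 ± 0.43 in CHp2 (edgeR adjusted p = 1.4e-05) and by 2.85 ± 0.39 at N72h (adjusted p = 6e-08) against 2ip5, and by 0.72 ± 0.26 in 2ip5 against 2i (adjusted p = 0.025), the last not called with TMM (-0.34). In *Rbpj*-KO cells it was at 244, 199 and 268 in 2i and at 294, 200 and 122 at N16h, below the RGd2 libraries in each case, with -0.47 ± 0.24 in 2i (adjusted p = 0.23) and a fall of 0.91 ± 0.23 at N16h (adjusted p = 0.0026). Thus *Rpl10l* and *Rpl39l* had opposite signs in *Rbpj*-KO cells, although the call of *Rpl39l* at N16h rests on 1 clone.

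*Rpl22l1*, whose messenger RNA is held down by RPL22, was at 771, 734 and 776 scaled counts in *Rbpj*-KO and at 503, 518 and 449 in RGd2 cells at N16h, a rise of 0.63 ± 0.12 (edgeR adjusted p = 9.6e-05). In 2i the values were 846, 884 and 894 against 673, 752 and 594, which did not overlap, with 0.34 ± 0.12 (adjusted p = 0.058) and, with TMM, 0.41 (called higher). It was at 346, 464 and 395 in 2ip5 and fell by 0.76 ± 0.14 there against 2i (adjusted p = 3.5e-05). In ER-dKO it was at 540, 535 and 535 and rose by 0.40 ± 0.13 against 2ip5 (adjusted p = 0.015), but this call was lost with TMM (0.20) and without 2ip5 replicate 1 (0.33) or 3 (0.37). Against RGd2 cells in 2i, *Rpl22l1* in ER-dKO changed by -0.37.

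As a share of the FPKM of both genes of a pair, *Rpl10l* made up 18.2% ± 5.59 (SD, n = 3) in RGd2 cells in 2i, 22.1% ± 3.90 at N16h, 8.20% ± 2.11 in 2ip5, 5.52% ± 1.59 in CHp2 and 1.90% ± 0.451 at N72h. It was 29.4% ± 1.89 and 29.9% ± 0.715 in *Rbpj*-KO and 11.6% ± 1.26 and 15.6% ± 1.04 (n = 2) in *Etv5*-KO, in 2i and at N16h, and 19.4% in ER-dKO and 17.5% in ETR-tKO. *Rpl39l* made up 15.04% in 2i, 16.9% at N16h, 6.71% in 2ip5, 1.66% in CHp2 and 1.28% at N72h, with 8.93% and 8.29% in *Rbpj*-KO and 9.07% and 13.3% in *Etv5*-KO. *Rpl22l1* ranged from 4.52% at N72h to 12.9% in *Rbpj*-KO in 2i and *Rpl7l1* from 12.5% at N72h to 23.1% in *Etv5*-KO at N16h. *Rps4l* ranged from 26.6% in CHp2 to 43.6% in ETR-tKO, and *Rps27l*, a p53 target, from 22.7% in 2ip5 to 34.6% in ETR-tKO. *Rpl36al* stayed between 0.542% and 0.915%, and *Rpl3l* between 0.0316% and 0.238%. All these shares depend on the annotated gene lengths by which FPKM divides. *Rpl10* and *Rpl10l* both have 642 coding bases, but the lengths used were 2053 and 1023 bases. In RGd2 2i replicate 31 the counts were 23632 for *Rpl10* and 3270 for *Rpl10l*, whose share by FPKM was 21.7%. The shares therefore do not give the part of the transcripts that each gene supplies.

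**Figure D3:**
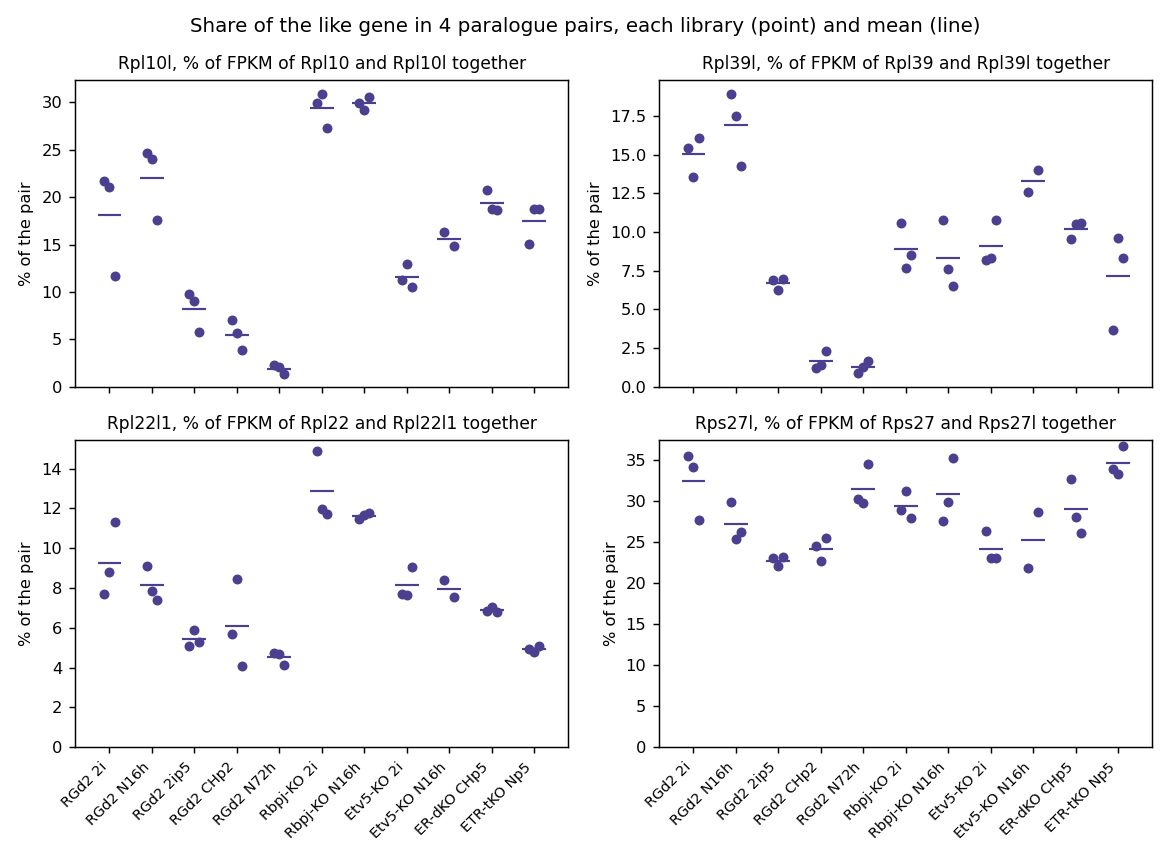
Share of the like gene in the summed FPKM of a pair, in percent, for 4 pairs over the 11 conditions. The height of each share depends on the gene lengths used for FPKM. Points are libraries and lines condition means. *Rpl10l* ran from 1.90% at N72h to 29.9% in *Rbpj*-KO at N16h, and *Rpl39l* from 1.28% at N72h to 16.9% at N16h.

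Short and longer members had different medians in several comparisons. Coding length was known for 83 members and ran from 75 to 1257 bases, and the correlations across members that follow are descriptions, since members share libraries and are not replicates. In 2ip5 against 2i, Spearman's rho of fold change with coding length was -0.61 over 81 members. The 15 tested members with at most 330 coding bases, a limit set after the data were seen, had a median of 0.51 and the 66 longer ones 0.07, a gap of 0.44, against 0.12 between short and longer genes outside the family. In the comparisons that have 2ip5 as reference, rho was 0.56 in ER-dKO, 0.55 in ETR-tKO, 0.58 in CHp2 and 0.47 at N72h. The short members lay 0.36, 0.35, 0.21 and 0.32 lower than the longer ones there, and short genes outside the family 0.11, 0.13, 0.07 and 0.06 lower than longer ones. At N16h against 2i rho was -0.46 over 82 members, with all 15 short members above the median of the longer ones. All comparisons with 2ip5 share its 3 libraries, so their signs are tied. In the single mutants rho was nearer 0, with -0.28 and 0.35 in *Rbpj*-KO and -0.25 and 0.10 in *Etv5*-KO, in 2i and at N16h. The short minus longer differences there were 0.18, -0.08, 0.04 and -0.04. *Rpl38*, *Rps27*, *Rpl37* and *Rps29* are among the short ones. Short members also differed between replicates. In RGd2 cells in 2i, *Rpl37* was at 3068, 3784 and 6250 scaled counts and *Rps29* at 1667, 1901 and 3666, each highest in replicate 33. *Rps27* was at 8032, 8283 and 7821 there, and *Rpl38* at 4026, 4426 and 4829. The values by coding length were not computed with single libraries left out. RNA fragment size and library preparation were not measured in these files, and their part in this pattern was not tested.

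**Figure D4:**
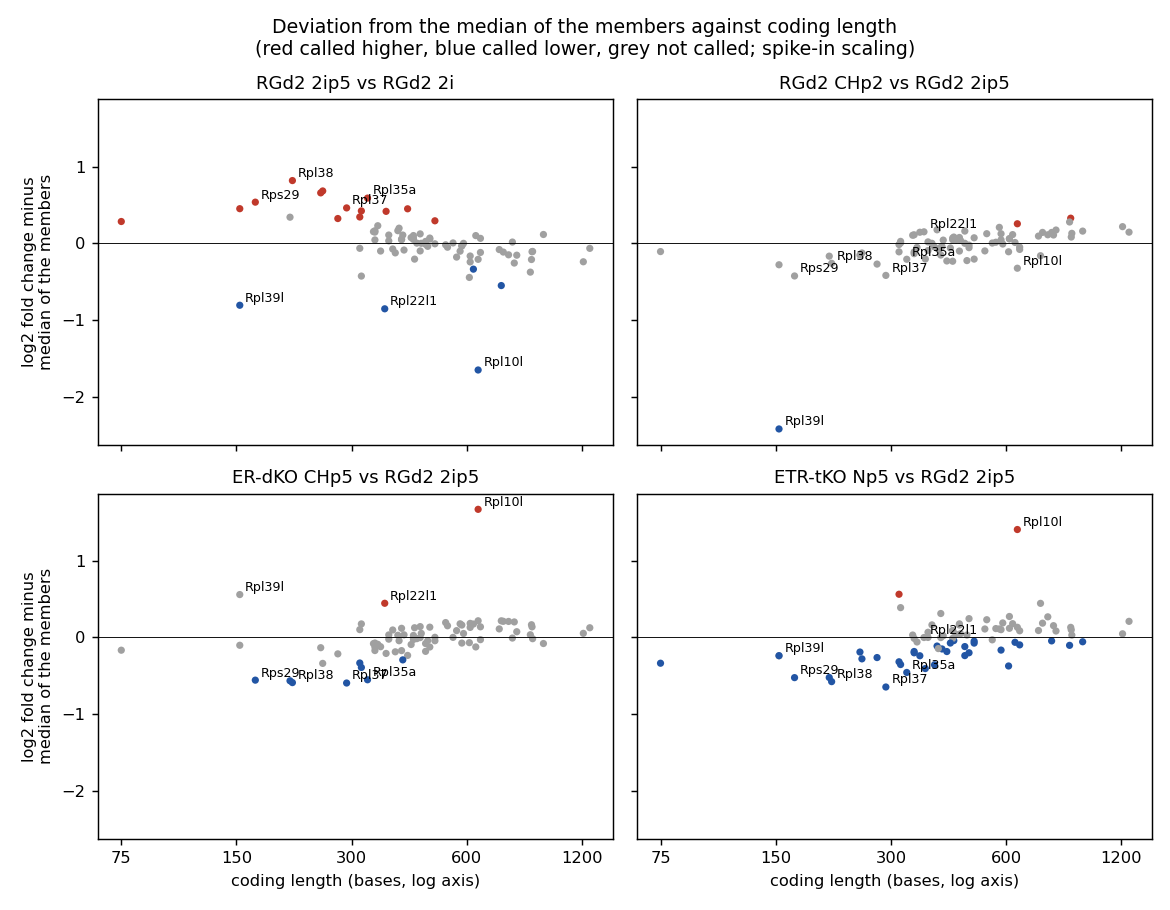
Deviation of each member's log2 fold change from the members' median (spike-in scaling) against coding length in bases on a log axis, in 4 comparisons. Red is called higher, blue lower and grey not called. Short members lay above the median in 2ip5 against 2i (short minus longer 0.44) and below it in the panels with 2ip5 as reference (0.36 lower in ER-dKO and 0.35 lower in ETR-tKO).

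Other genes of the translation apparatus were compared by list. The mitochondrial ribosomal proteins (78 genes, 77 tested) moved with the median gene in 2ip5 against 2i, with 0 called higher and 42 lower by edgeR with spike-ins, where 2.96% and 53.3% of all genes were, and a median 0.07 above that of all genes, against 0.48 for the cytosolic family. The 31 ribosome biogenesis genes had 0 higher and 20 lower, and a median 0.02 above. A list of 16 translation factors and other genes, among them *Npm1*, *Hnrnpa1* and *Nap1l1*, was taken as having pyrimidine-rich starts, which were not examined here. It had 0 higher and 3 lower and a median 0.26 above. The 4 ribosome components whose symbols the rule does not take (*Fau*, *Rack1* and *Rps3a1* among them) had no call and a median 0.41 above. In ETR-tKO, 24 of 77 mitochondrial ribosomal protein genes were called higher and 4 lower, where 38% and 10% of all genes were, with a median 0.09 below that of all genes, where the cytosolic family lay 0.49 below. There 9 of 31 biogenesis genes were called higher and 1 lower with a median 0.13 below. Of the list of 16 translation factors and other genes, 2 were higher and 0 lower with 0.26 below, and 2 of the 6 snoRNA host genes were lower with 0.56 below. *Fau*, whose product includes a small-subunit protein, was called lower with -0.42 ± 0.09 (edgeR adjusted p = 0.00034). The snoRNA host genes also had 4 of 6 called lower at N72h, where 22.8% of all genes were, and 3 of 6 in CHp2, where 13% were, *Snhg6* with -1.04 ± 0.16 at N72h (adjusted p = 6.5e-07). At N16h, 3 of the 4 further components were called lower, where 41% of all genes were, among them *Rack1*, a scaffold on the small subunit, with -0.38 ± 0.10 (adjusted p = 0.0015).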

How the data were processed

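RNA from 32 mouse ESC cultures was sequenced with a stranded kit after ERCC transcripts had been added. The labels name polyA RNA and the protocol ribosomal RNA depletion, and which applied could not be settled. Per the labels and the study's methods, Trim Galore removed adapters, TopHat2 placed the reads on mm10 plus ERCC sequences guided by Gencode M14, and featureCounts gave the raw counts of uniquely placed fragments per gene that the authors deposited. Tool versions are not given in the sources used here. Only unique placement counts reads from near-identical copies of ribosomal protein genes low. The share of a gene's 50-base stretches found in another gene was computed for this, and it also counts overlapping genes that are no copies.

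From the deposited counts, FPKM and log2 values were computed here. Genes were tested with edgeR 4.0.16 (quasi-likelihood, R 4.3.3) in 1 model of all 32 libraries, with size factors from 52 ERCC transcripts (median of ratios) or TMM, and Benjamini-Hochberg adjustment over 18892 genes. Members were called at adjusted p below 0.05 if either group averaged at least 1 FPKM. DESeq2 1.42.0 served as alternative, and Python 3.11.15 with pandas 2.3.3 and matplotlib 3.10.9 for summaries and figures. Scripts were tested on simulated data. The RGd2 replicates are cultures of 1 line and of its clone, and those of a mutant group are different clones. The model takes 1 spread per gene from the replicates of all 11 conditions. The p-values therefore measure that shared spread, also in comparisons of RGd2 groups alone, and the spread may be technical.

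The members and gene lists were chosen with earlier results of these data known. Genes named were the pairs of a member and its like gene, stalk and 5S RNA partners, *Rpsa*, the 3 highest and 3 lowest members, up to 2 called members farthest above and below the family's median per comparison with non-overlapping libraries, and up to 2 called genes per further list. Rows of 193 identifiers without a symbol held 0.0259% of counts, and 288 -ps pseudogenes were left out. Some genes are counted but not reported by name here. Alternatives were other size factors, filters, the model's libraries, the reference, DESeq2, a block for the line or clone the labels name (clones were shared between 2i and N16h) and leaving out each library.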

Additional observations from a re-analysis of the deposited data

Results flagged for a closer look

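With spike-in scaling, the response to 16 h without 2i differed between *Etv5*-KO and RGd2 cells for 2 members by the test of the difference itself. *Rps2*, a small-subunit protein, was at 27466, 23784 and 37458 scaled counts in RGd2 cells in 2i and at 21347, 19171 and 17583 at N16h, and at 27825, 24938 and 23718 in *Etv5*-KO cells in 2i and at 23222 and 23209 at N16h. The difference of the responses was 0.47 ± 0.19 (log2, SE; edgeR adjusted p = 0.048). *Rps16*, also of the small subunit, was at 10635, 8994 and 12343 and then at 7411, 8183 and 7537 in RGd2 cells, and at 9288, 10165 and 9414 and then at 10242 and 9015 in *Etv5*-KO cells, with a difference of 0.46 ± 0.16 (adjusted p = 0.022). Of all genes, 45.5% had a higher response in this comparison. In a model of only the libraries compared the differences were 0.47 and 0.46, and neither was called. With TMM the differences were 0.08 and 0.05 and neither was called. The highest 2i value of both genes was in RGd2 replicate 33. Without that library the difference was 0.27 for *Rps2*, which was then not called, and 0.35 for *Rps16*, which was.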

How the results depend on the processing

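The minimum of 1 FPKM kept *Rpl3l* and *Rpl6l* from being called in any comparison and *Rpl24* in several, and 2ip5 as reference decides the direction in 4 comparisons. Over all alternatives, 414 values of the comparisons stayed within the limits set, 142 moved and 8 reversed. For named members, 388 values kept their direction and side of the threshold, 77 lost the call and 4 reversed, counting each alternative of each call. The cause of the changes below was not tested. Replicate numbers are unique, so that none pairs groups, but the labels name the parental or clonal line and the mutant clones that 2i and N16h share. With the line or clone as replicate block, the numbers of members called higher and lower were 0 and 20 at N16h, 0 and 19 at N72h, 2 and 2 in CHp2, 15 and 6 in 2ip5, 0 and 0 in the *Rbpj*-KO response and 2 and 0 in the *Etv5*-KO response, and no family median changed its direction.

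With TMM, the numbers that changed by more than 1.5 times were, higher and lower, 4 and 4 at N16h, 1 and 17 in CHp2, 68 and 2 in 2ip5, 0 and 9 in *Etv5*-KO at N16h, 1 and 42 in ER-dKO, 1 and 74 in ETR-tKO and 0 and 20 in the *Etv5*-KO response. Also with TMM, 46 were lower at N72h, 2 higher in *Rbpj*-KO in 2i, 9 lower in *Rbpj*-KO at N16h and 29 higher in *Etv5*-KO in 2i. With median-of-ratios factors from genes, with or without the members, the numbers were the same except 38 lower at N72h, 14 lower in CHp2, 67 higher in 2ip5, 10 lower in *Rbpj*-KO and 11 lower in *Etv5*-KO at N16h, 27 higher in *Etv5*-KO in 2i and, without the members, 21 lower in the *Etv5*-KO response. Total spike-in counts gave 5 higher in that response. DESeq2 gave 1 higher in *Rbpj*-KO and 0 lower in *Etv5*-KO at N16h.

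Against RGd2 2i, the median member minus the median gene reversed to 0.29 at N72h, 0.33 in CHp2, 0.25 in ER-dKO and 0.0080 in ETR-tKO. There 5 members were higher at N72h, 13 higher and 6 lower in CHp2, 3 lower in ER-dKO, and 1 higher and 16 lower in ETR-tKO. The shares of all genes called against RGd2 2i are not given here, and those above belong to 2ip5 as reference. *Rpl22l1* in ER-dKO (-0.37), *Rpl38* in ER-dKO (0.27) and ETR-tKO (0.11), and *Rpl10l* in ETR-tKO (-0.38) turned round. Without a low-count filter, which changes the median gene, the same difference reversed to -0.0745 at N16h, 0.0034 in CHp2, 0.0065 in *Rbpj*-KO at N16h and 0.0337 in *Etv5*-KO at N16h, and moved to -0.0768 at N72h, 0.37 in 2ip5, 0.13 in *Etv5*-KO in 2i, -0.10 in ER-dKO and -0.37 in ETR-tKO. There 2 members were higher at N16h, 4 lower in CHp2, 3 higher in *Rbpj*-KO in 2i and 1 lower in the *Etv5*-KO response. In models of only the libraries compared, 3 were lower at N16h, 2 higher at N72h, 9 lower in CHp2, 8 higher and 3 lower in 2ip5, 0 higher in *Etv5*-KO in 2i, 9 higher in *Etv5*-KO at N16h, 7 higher and 20 lower in ER-dKO and 0 higher in the *Etv5*-KO response.

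Leaving out each library in turn, the median member minus the median gene, the number called higher and the number called lower ranged as follows. At N16h they were 0.02 to 0.13, 0 to 1 and 7 to 47. At N72h they were -0.21 to -0.18, 0 to 0 and 8 to 18. In CHp2 they were -0.20 to -0.13, 0 to 3 and 1 to 1. In 2ip5 they were 0.43 to 0.53, 9 to 25 and 3 to 10. In *Rbpj*-KO they were 0.01 to 0.09, 1 to 2 and 0 to 14 in 2i, and -0.19 to -0.08, 1 to 2 and 0 to 1 at N16h. In *Etv5*-KO they were 0.18 to 0.27, 0 to 4 and 1 to 7 in 2i, and -0.22 to -0.0280, 0 to 2 and 0 to 1 at N16h, where a group left with 1 library was assumed to vary like the others. In ER-dKO they were -0.27 to -0.21, 1 to 3 and 1 to 11, and in ETR-tKO -0.52 to -0.46, 2 to 3 and 21 to 32. In the *Rbpj*-KO response they were -0.26 to -0.14, 0 to 1 and 0 to 0, and in the *Etv5*-KO response -0.46 to -0.28, 1 to 8 and 0 to 0.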
